A study of Mus musculus with 3 samples.

Results

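The genes described here are 10 immediate early genes and MAPK phosphatases, namely the AP-1 genes Fos, Fosb, Jun and Junb, the transcription factor genes Egr1 and Atf3, the phosphatase genes Dusp1, Dusp4 and Dusp6, and Ier2. They were taken as every probe set whose single gene symbol in the platform annotation was one of these names, which gave 11 of the 45101 probe sets, and 10 of the 18193 genes with a symbol of their own. RNA came from follicle-associated epithelium, the sheet of cells over the lymphoid follicles of the small intestine, and was hybridised to Affymetrix arrays. The genotypes compared were both on a C57BL/6 background and untreated, namely 2 arrays of mice depleted of RBP-J (VillinCre-Rbpjflox/flox, labelled KO1 and KO2, called the first and the second depleted array here) and 1 array of wild type mice. Villin drives Cre in intestinal epithelial cells, so other cells in the tissue keep the floxed gene. The labels give no age, and they do not say whether animals were pooled or whether the depleted arrays came from separate animals.

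Immediate early genes are transcribed within minutes of a signal, with no need for new protein. Growth factors acting through Ras and the MAP kinase ERK, and stress acting through the kinases JNK and p38, switch them on through SRF, its ETS partners and CREB at their promoters. Their products form transcription factors such as AP-1, a dimer of Fos and Jun family proteins. Dual specificity phosphatases are induced by the same signals and remove the activating phosphates from the MAP kinases. In intestinal epithelium ERK signalling is tied to growth of the crypt.

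Values are intensities, each array divided by its own median over all probe sets. Differences are on the log2(intensity + 0.248) scale, depleted minus wild type. Over the 11885 genes tested the log2 differences had a median of -0.003 for the first depleted array and 0.22 for the second, so differences are also given after these medians are subtracted, where that matters. Rbpj itself read 2.72 and 5.74 in the depleted arrays, against 7.15 in wild type (log2 difference -0.81, SE 0.49, limma adjusted p = 0.9997). Whether this probe set lies in the floxed stretch is not stated in the labels, so it does not check the deletion. The sex-linked genes split the arrays as the genotypes do. Xist read 42.8 and 43.4 in the depleted arrays, against 0.297 in wild type, and Eif2s3y 0.122 and 0.056, against 20.6, so that genotype and sex cannot be told apart. The ratio of 3' to 5' probe sets of Gapdh, a sign of RNA quality, was 2.28 and 1.54 in the depleted arrays, against 1.83 in wild type. For Actb it was 1.15 and 1.02, against 1.11. All 8 epithelial markers read well over the array median in every array, with Epcam at 129 and 153 in the depleted arrays, against 109 in wild type. The 9 markers of follicle-associated epithelium and M cells summed to 367 and 493 in the depleted arrays, against 349 in wild type. Of these, 4 were higher in both depleted arrays, 0 lower in both and 5 split, beside 39.0%, 19.5% and 41.5% of all genes. Among the split ones, the M cell receptor gene Gp2 read 9.90 and 32.6, against 19.8.

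The 10 genes were proposed with earlier results of this same contrast known, among them the high rank of Dusp4. Their differences from wild type are therefore given as a description, with no p-value for any of them, and calls are only counted, beside the share called over all genes. Fewer cells of a type and less RNA per cell cannot be told apart in tissue RNA.

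**Figure D1:**
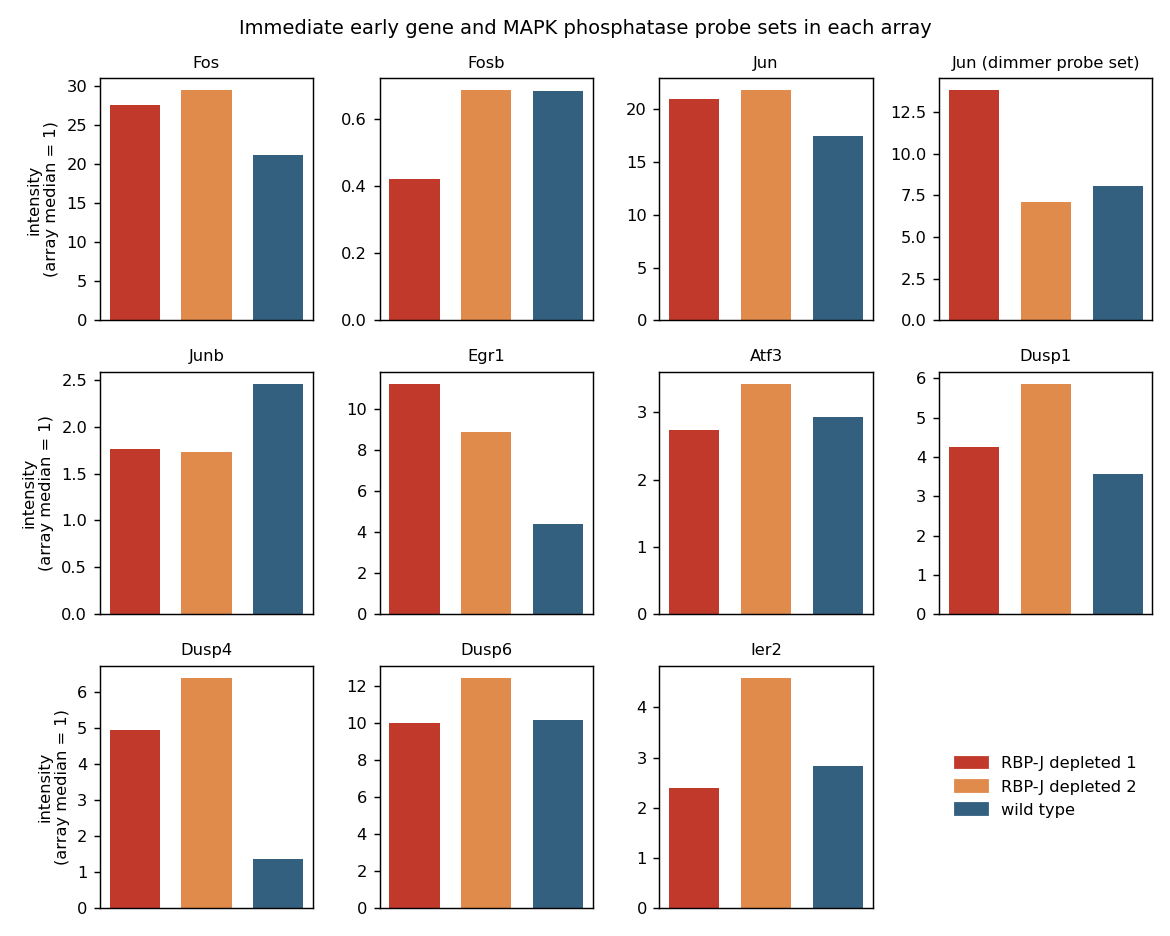
Bars show the intensity of each of the 11 probe sets, in multiples of the array median, in the 2 RBP-J depleted arrays and the wild type array, with 1 value per array and a separate axis per panel. Both depleted bars stand well above wild type for Dusp4 (4.96 and 6.41, against 1.36) and Egr1 (11.2 and 8.89, against 4.39), and below it for Junb.

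Promoter sequence is shown for the 4 genes that lay on the same side of wild type in both depleted arrays and have an entry in the RefSeq promoter table (GRCm38.p6), namely Fos, Jun, Junb and Dusp1. Each stretch runs from 250 bases before the annotated start of the gene to 50 bases after it, 5′ to 3′ on the strand of the gene. Capitals mark matches on either strand to the cAMP response element TGACGTCA, to its core TGACG, and to TGGGAA, the core of the site RBP-J binds. Fos lies at chr12:85473640-85473939 (plus strand), Jun at chr4:95052173-95052472 (minus strand), Junb at chr8:84978699-84978998 (minus strand) and Dusp1 at chr17:26508423-26508722 (minus strand).
Fos: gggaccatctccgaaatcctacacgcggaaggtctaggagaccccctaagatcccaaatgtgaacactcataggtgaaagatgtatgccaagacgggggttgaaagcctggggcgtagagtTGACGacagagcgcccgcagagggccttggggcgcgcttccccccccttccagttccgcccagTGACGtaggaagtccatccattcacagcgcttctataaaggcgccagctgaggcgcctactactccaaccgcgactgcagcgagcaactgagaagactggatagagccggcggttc
Jun: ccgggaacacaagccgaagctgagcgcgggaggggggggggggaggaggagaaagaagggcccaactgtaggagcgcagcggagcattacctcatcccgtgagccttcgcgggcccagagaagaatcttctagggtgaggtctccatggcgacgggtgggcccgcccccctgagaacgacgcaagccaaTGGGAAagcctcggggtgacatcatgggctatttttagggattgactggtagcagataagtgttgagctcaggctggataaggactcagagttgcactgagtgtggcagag
Junb: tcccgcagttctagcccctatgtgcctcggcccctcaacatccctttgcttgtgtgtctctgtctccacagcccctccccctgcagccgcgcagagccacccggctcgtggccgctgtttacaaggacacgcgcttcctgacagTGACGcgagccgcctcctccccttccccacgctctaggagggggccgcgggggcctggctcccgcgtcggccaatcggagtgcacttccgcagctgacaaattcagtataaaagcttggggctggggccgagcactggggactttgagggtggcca
Dusp1: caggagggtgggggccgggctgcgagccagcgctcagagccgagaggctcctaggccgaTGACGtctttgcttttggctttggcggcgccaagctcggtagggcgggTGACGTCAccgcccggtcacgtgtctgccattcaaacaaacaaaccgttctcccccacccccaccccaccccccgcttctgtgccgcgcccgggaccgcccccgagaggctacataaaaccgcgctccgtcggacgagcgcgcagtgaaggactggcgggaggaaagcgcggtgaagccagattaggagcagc

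Among the 7 of the 10 genes with an entry in that table, the core TGACG was found in 5 (Fos, Fosb, Junb, Atf3 and Dusp1), against 20.8% of all 32851 promoters in the table. The whole element TGACGTCA, which contains the core on both strands, was found in Dusp1 alone, with its first base 143 bases before the start, against 1.79% of all promoters. In Fos the core began 66 and 129 bases before the start. The letters TGGGAA were found in Jun alone, beginning 61 bases before the start, against 25.6% of all promoters. Neither the AP-1 site TGANTCA, held by 7.81% of all promoters, nor the CArG box that SRF binds, held by 1.63%, was in any of the 7 windows. The windows begin only 250 bases before the start, and only exact matches were counted. Sites further off or with other letters were not looked for, so these genes cannot be said to lack them. Fos, with 2 cores, was higher than wild type in both depleted arrays, and Junb, with 1, was lower in both. Jun, without a core, was also higher in both by its brighter probe set. Fosb and Atf3, which hold the core, had wild type between the depleted arrays. A relation between the core and the direction was not tested. Dusp4, Egr1 and Ier2 are not among the sequences shown.

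Dusp4 and Egr1 differed most from wild type. Dusp4 encodes a nuclear phosphatase that acts on ERK and other MAP kinases and is itself induced by ERK signalling. It read 4.96 and 6.41 in the depleted arrays, against 1.36 in wild type, which is 3.64 and 4.71 times the wild type intensity. Both depleted arrays were high and the groups did not overlap. The log2 differences were 1.69 and 2.05, and 1.70 and 1.83 with the array medians subtracted. Ranked by the smaller of its 2 log2 differences, Dusp4 was number 8 of the 11885 genes from the highest. With a pseudocount of 1 in place of 0.248 the log2 differences were 1.34 and 1.65.

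Egr1, a zinc finger transcription factor induced by ERK through SRF and its ETS partners, read 11.2 and 8.89 in the depleted arrays, against 4.39 in wild type. That is 2.56 and 2.02 times the wild type intensity, again with no overlap, and here the first depleted array was the higher. Its log2 differences were 1.31 and 0.98, and 1.31 and 0.75 with the array medians subtracted. It was number 110 of the 11885 genes by the same rank.

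The AP-1 genes did not move as a block. Fos read 27.6 and 29.5 in the depleted arrays, against 21.2 in wild type, with log2 differences of 0.38 and 0.47. Both depleted arrays lay above wild type, by 1.30 and 1.39 times. Against the median of all genes the differences were 0.38 and 0.25.

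Jun, the usual partner of Fos, has a pair of probe sets. The brighter one read 21.0 and 21.8 in the depleted arrays, against 17.5 in wild type, with log2 differences of 0.26 and 0.32, or 0.26 and 0.09 with the medians subtracted. With quantile normalization the difference in the second depleted array was -0.009, so its direction there depends on the scaling. The dimmer one read 13.8 and 7.12, against 8.07, with log2 differences of 0.76 and -0.17. The probe sets of Jun thus put the second depleted array on opposite sides of wild type.

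Junb, an AP-1 subunit that can hold back the activity of Jun, was the 1 gene of the 10 that lay below wild type in both depleted arrays. It read 1.76 and 1.73, against 2.46 in wild type. The depleted arrays nearly coincided, at 0.72 and 0.70 times wild type, with log2 differences of -0.43 and -0.45, or -0.43 and -0.68 with the medians subtracted.

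Fosb, a Fos relative best known from neurons, read 0.422 and 0.688 in the depleted arrays, against 0.686 in wild type. All 3 values lie under the array median. Its mean of 0.599 was just above the filter of 0.598, and the other 9 genes passed it with higher means.

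**Figure D2:**
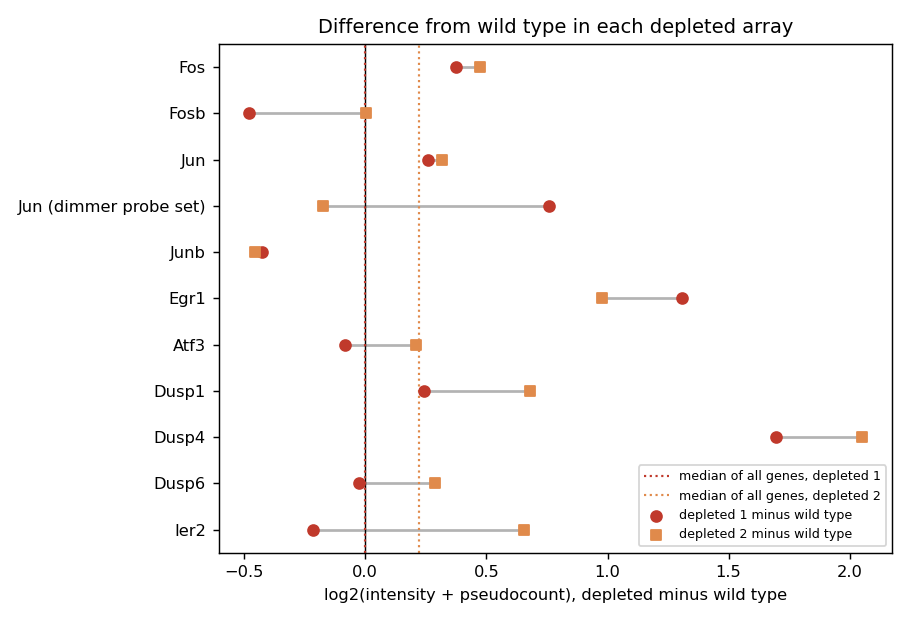
Each row is a probe set, and the points give its log2 difference from wild type in the first (circles) and the second (squares) depleted array. Dotted lines mark the median difference of all genes tested, -0.003 in the first and 0.22 in the second. Dusp4 and Egr1 stand to the right in both arrays and Junb to the left in both.

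Of the other phosphatases, Dusp1, a nuclear enzyme that acts mainly on p38 and JNK, was higher in both depleted arrays, and Dusp6 stayed close to wild type. Dusp1 read 4.26 and 5.86, against 3.56 in wild type, with log2 differences of 0.24 and 0.68, or 0.24 and 0.46 with the medians subtracted. Dusp6, a cytoplasmic phosphatase specific for ERK, read 10.02 and 12.5, against 10.2. Its wild type value lay between those of the depleted arrays, and its log2 differences were -0.02 and 0.29, or -0.02 and 0.06 with the medians subtracted. Its position depends on the scaling, since both differences were above 0 under quantile normalization (0.00555 and 0.0199) and with a common 75th percentile (0.024 and 0.097).

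The remaining genes also had wild type between the depleted arrays. Atf3, a stress-induced bZIP factor, read 2.74 and 3.42 in the depleted arrays, against 2.93 in wild type, with log2 differences of -0.09 and 0.21. Ier2, a nuclear protein gene of the immediate early class, read 2.40 and 4.60, against 2.82, with log2 differences of -0.22 and 0.66. In both genes the first depleted array was the lowest of the 3 and the second the highest.

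With 1 wild type array, the spread of a single array can be read only between the depleted arrays. Median subtracted, they lay 0.13 apart on the log2 scale on Dusp4 and 0.55 apart on Egr1. They lay furthest apart on the dimmer probe set of Jun, by 1.16, and on Ier2, by 0.65.

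In all, 5 of the 10 genes (Fos, Jun, Egr1, Dusp1 and Dusp4) were higher than wild type in both depleted arrays, beside 39.0% of all genes tested. Junb alone was lower in both, beside 19.5%, and 4 had wild type in between, beside 41.5%. These shares depend on the scaling. Of all genes, 29.9% were higher in both and 29.9% lower in both with the medians subtracted, 30.9% and 29.4% under quantile normalization, and 34.2% and 26.1% with a common 75th percentile. Dusp4 alone was at least 2-fold higher in both on the log2 scale used, beside 0.841% of all genes. None was at least 2-fold lower in both, beside 0.488%. Over all genes that is 100 higher and 58 lower, or 72 and 86 with the medians subtracted and 85 and 75 with a common 75th percentile. The median of the 10 genes' log2 differences was 0.11 for the first depleted array and 0.40 for the second. Across all genes the limma fit called 10 genes (0.0841%) at an adjusted p under 0.05, of which 4 were sex-linked (Xist, Eif2s3y, Kdm5d and Uty). None of the 10 genes described was among them, with 2 at an unadjusted p under 0.05, beside 2.27% of all genes. When the probe sets of each gene were averaged, 1 of the 10 was called, beside 12 of all 11429 genes then tested. Since the genes were chosen on this contrast, nothing is read from these counts.

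**Figure D3:**
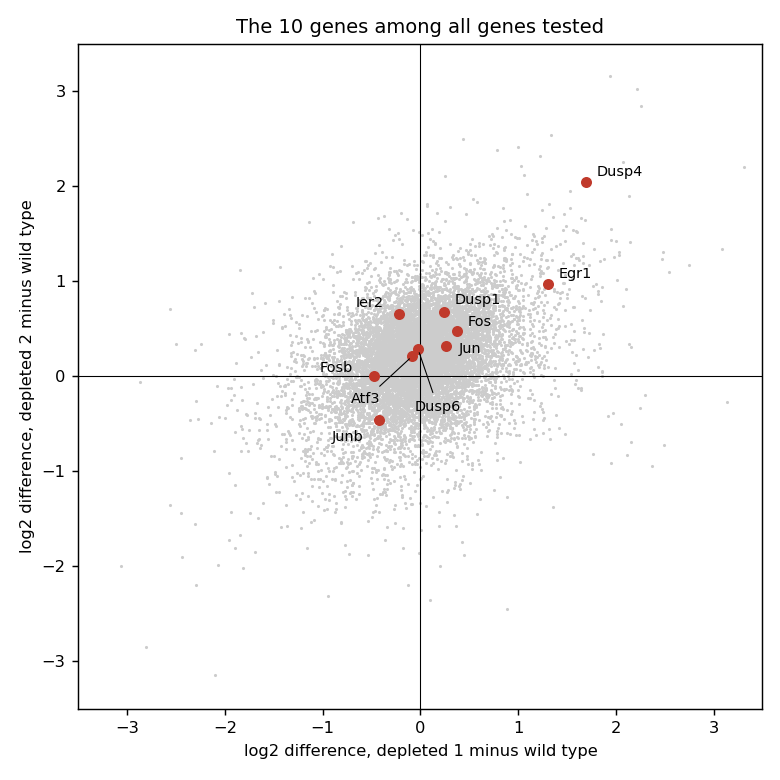
Grey points are the 11885 genes tested, by their log2 difference from wild type in the first (horizontal) and the second (vertical) depleted array, and red points are the 10 genes, named. Both axes stop at 3.5 and leave out 4 genes. Dusp4 and Egr1 lie toward the upper right edge of the cloud, and the other 8 lie within it.

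By the distance between pairs of log2 differences over these 3 arrays, the tested genes with a mean of at least 1 that lay nearest to Dusp4 were Ces1d, Pym1 and Adcy8. Ces1d read 2.13 and 2.94 in the depleted arrays, against 0.576 in wild type, at a log2 distance of 0.19. Pym1 read 2.38 and 2.43, against 0.592, at 0.38, and Adcy8 read 2.03 and 2.46, against 0.577, at 0.41.

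Among the other immediate early genes, none of the 29 tested of 32 listed was called by limma, and 0 had an unadjusted p under 0.05. In both depleted arrays 12 (41.4%) were higher than wild type and 7 (24.1%) were lower, with 10 split. Over all genes 39.0% were higher in both and 19.5% lower in both. The list's median log2 differences were 0.09 and 0.21, beside -0.003 and 0.22 over all genes. The dim genes Fosl1, Nr4a1 and Ccn2 did not pass the filter. Plk2, a polo-like kinase, read 4.87 and 5.30 in the depleted arrays, against 8.28 in wild type (log2 differences -0.74 and -0.62). Maff, a small Maf factor, read 18.4 and 17.2, against 11.9 (0.61 and 0.52). Klf4, a Krüppel-like factor of differentiated epithelium, read 32.9 and 34.9, against 24.5 (0.42 and 0.51), and its other probe set gave 0.47 and 0.63.

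The closest relatives of Egr1 did not follow it in the first depleted array, and Egr2 was below wild type in the second too by its brightest probe set. Egr2, chosen after its values were seen, like Egr3 and Nr4a3, read 0.94 and 2.34 in the depleted arrays, against 2.67 in wild type. Its other probe set gave log2 differences of -0.56 and 0.46. Egr3 read 0.223 and 1.18, against 0.873. The nuclear receptor gene Nr4a3 read 0.340 and 0.975, against 0.843, while its dimmer probe sets gave log2 differences of 1.39 and 0.06, and 1.02 and 0.14. By their brightest probe sets, these 3 genes were lowest in the first depleted array. Egr3 was there under the pseudocount of 0.248, and Nr4a3 lay under the array median in every array. Nr4a2, of the same list and also chosen after its values were seen, went the other way by its brightest probe set. It read 3.57 and 1.72 in the depleted arrays, against 2.37 in wild type, and its dimmer probe sets were mixed. The summed level of 9 B cell markers was 21.1 and 46.2 in the depleted arrays, against 47.4 in wild type. None of those markers was under the pseudocount in every array. In both depleted arrays 1 was higher and 5 were lower, beside 39.0% and 19.5% of all genes. The part of B cells in these values was not tested.

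Among the other MAPK phosphatases of the family, 0 of the 6 tested of 7 listed were called by limma. At an unadjusted p under 0.05 there was 1, beside 2.27% of all genes. In both depleted arrays 3 (50%) were higher and 2 (33.3%) lower, with 1 split, beside 39.0%, 19.5% and 41.5% of all genes. The list's median log2 differences were 0.07 and 0.03, beside -0.003 and 0.22 over all genes. With the medians subtracted, Dusp16 was no longer higher in the second depleted array (-0.11). Dusp8, which acts on JNK and p38, read 4.23 and 2.90 in the depleted arrays, against 1.46 in wild type (log2 differences 1.39 and 0.89). Its other probe sets gave -0.18 and 0.88, and -0.07 and 0.20. Dusp7, an ERK phosphatase like Dusp6, read 1.83 and 1.79, against 0.803 (0.98 and 0.95), and its other probe sets gave 0.05 and 1.205, and -1.66 and -0.21. Dusp5, a nuclear ERK phosphatase, read 3.30 and 2.88, against 4.47 (-0.41 and -0.59).

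Upstream and beside these genes, the feedback inhibitors and output genes of ERK signalling had median log2 differences of 0.36 and 0.36. These cover 11 tested of 15 listed genes, beside medians of -0.003 and 0.22 over all genes. In both depleted arrays 7 (63.6%) were higher than wild type and 0 lower, with 4 split. Over all genes 39.0% were higher in both and 19.5% lower in both. With the medians subtracted, Spred2 was no longer higher in the second depleted array (-0.05). None of the 11 was called by limma and 0 had an unadjusted p under 0.05. The dim genes Etv4, Spry4 and Spred3 did not pass the filter. Etv4, chosen after its values were seen, was lower in both depleted arrays by each of its probe sets. Their log2 differences were -2.0 and -1.43, and -0.73 and -0.20. The ephrin receptor gene Epha2 read 6.23 and 6.46 in the depleted arrays, against 4.07 in wild type. The FGF signalling inhibitor Il17rd read 2.03 and 1.94, against 1.45. The clock and stress repressor Bhlhe40 read 21.5 and 32.1, against 17.96.

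The EGF family ligands and receptors had medians of 0.08 and 0.25 over 8 tested of 13 listed genes, beside -0.003 and 0.22 over all genes. In both depleted arrays 5 (62.5%) were higher and 0 lower, beside 39.0% and 19.5% of all genes. With the medians subtracted, Adam17 and Btc were no longer higher in the second depleted array (-0.17 and -0.15). Erbb2 was then lower in both depleted arrays (-0.39 and -0.03). Limma called 0 of the list (0 at an unadjusted p under 0.05). The ligand Ereg read 2.23 and 1.44 in the depleted arrays, against 0.787 in wild type, and the receptor Erbb3 read 53.3 and 57.1, against 37.8. The ligand Tgfa read 5.50 and 4.09, against 3.42. The Ras, Raf and MAP kinase cascade had medians of 0.03 and 0.13 over 24 tested of 32 listed genes. Of these 10 (41.7%) were higher in both and 4 (16.7%) lower in both, near the shares over all genes. Limma called 0 of them (0 at an unadjusted p under 0.05). The adaptor gene Grb2 read 9.90 and 12.4, against 6.92, and Nras 20.2 and 24.6, against 15.6. Map3k1, a kinase upstream of JNK, read 10.2 and 10.1, against 7.95. Another probe set of Grb2 gave log2 differences of -0.007 and 0.55, and those of Nras -0.23 and 0.47, and -0.49 and 0.83.

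The transcription factors that act on immediate early promoters had medians of -0.14 and 0.35 over 15 tested of 16 listed genes, beside -0.003 and 0.22 over all genes. Of these 6 (40%) were higher in both and 3 (20%) lower in both, near the 39.0% and 19.5% of all genes. Limma called 0 of them (0 at an unadjusted p under 0.05). Srf, the serum response factor, read 5.0 and 4.18 in the depleted arrays, against 3.07 in wild type, but its other probe set gave log2 differences of -0.59 and 0.64. Its coactivator gene Mrtfa read 5.80 and 5.09, against 3.37. The ETS partner gene Elk3 read 2.57 and 1.98, against 1.47, and 1 of its other probe sets gave -0.83 and -0.60.

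The ATF4 and CHOP pathway, which can also induce Atf3, had medians of 0.13 and 0.40 over 12 tested genes, beside -0.003 and 0.22 over all genes. In both depleted arrays 7 (58.3%) were higher and 0 lower, beside 39.0% and 19.5% of all genes. With the medians subtracted, Sesn2 was no longer higher in the second depleted array (-0.03), and Vegfa was lower in both (-0.20 and -0.13). Limma called 0 of them, with 1 at an unadjusted p under 0.05, beside 2.27% of all genes. Chac1, a CHOP target that degrades glutathione, read 1.85 and 2.12 in the depleted arrays, against 0.249 in wild type, a value close to the pseudocount (limma adjusted p = 0.158). It was called when probe sets were averaged. Trib3 read 2.16 and 2.996, against 1.28, and Ddit3, the gene of CHOP, 3.38 and 3.54, against 2.60, though another probe set of Ddit3 gave log2 differences of -1.16 and -0.84. Atf3, as given above, was not on the same side of wild type in both arrays.

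Heat shock genes include the 2 genes of the pathway lists that the fit called. Hspa1b, for inducible Hsp70, fell to 5.71 and 2.65 in the depleted arrays, against 25.4 in wild type (log2 difference -2.62, SE 0.48, limma adjusted p = 1.46e-04). Hspa1a, its near-identical neighbour, fell to 1.52 and 2.33, against 9.38 (log2 difference -2.17, SE 0.51, limma adjusted p = 0.0273). Their transcripts are too alike to say which one a probe set measured. Both calls were lost under quantile normalization, when arrays were scaled to a common 75th percentile, and when dim genes were kept, and that of Hspa1a also when filtered at the 60th percentile and without an intensity trend. Hsph1 read 29.1 and 28.6, against 52.2, and was not called. Of 10 tested heat shock genes, 0 were higher than wild type in both depleted arrays and 4 were lower in both, beside 39.0% and 19.5% of all genes. Their medians were -0.41 and 0.09, beside -0.003 and 0.22 over all genes. Any gene lower in both depleted arrays is low in the arrays where Dusp4 and Egr1 were high, so no relation between them is read from this.

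**Figure D4:**
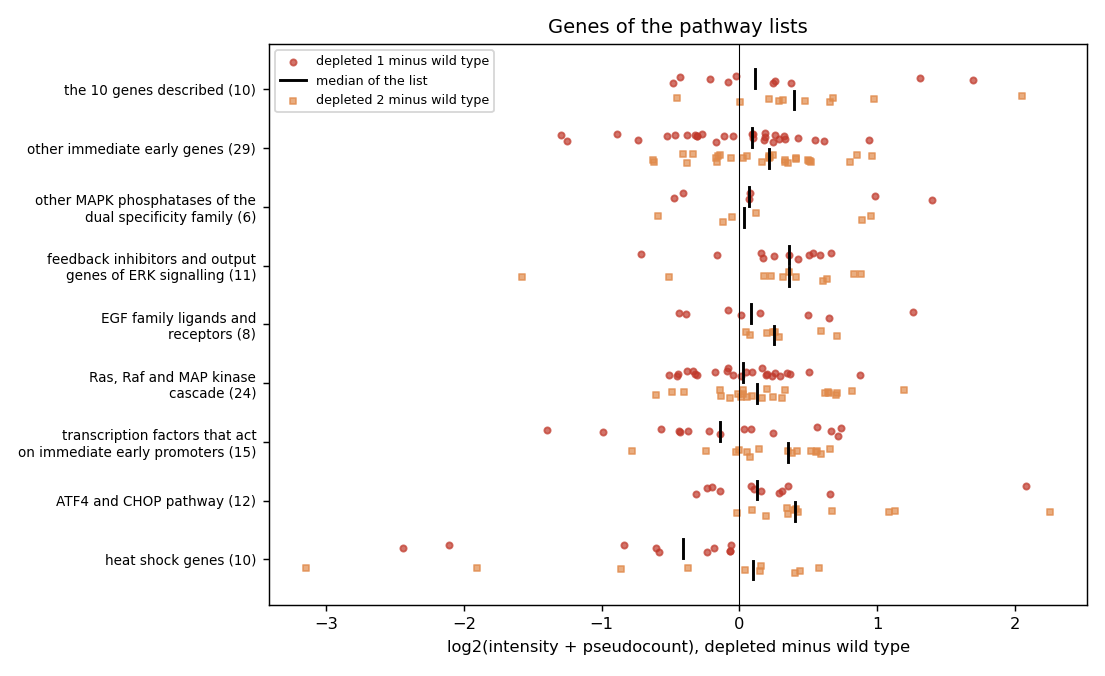
Points are the tested genes of each list, by their log2 difference from wild type in the first (circles) and the second (squares) depleted array, with the number of genes tested in brackets and black bars for the medians. Of the lists plotted, which leave out cell markers and sex-linked genes, heat shock genes have the lowest median in the first depleted array, at -0.41, and the ERK feedback and output genes the highest, at 0.36. The extremes are other lists in the second depleted array. There the other MAPK phosphatases have the lowest median, at 0.03, and the ATF4 and CHOP pathway the highest, at 0.40.

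Markers of other cells were also summed, over the brightest probe set of each gene. Summed over 10 macrophage and dendritic cell markers, levels were 66.7 and 84.7 in the depleted arrays, against 67.4 in wild type, with Adgre1 under the pseudocount in every array. Lyz2 gave most of this, and without it the sums were 10.99 and 14.7, against 10.6. Over 7 T cell markers they were 13.6 and 23.3, against 16.3. Over 10 fibroblast markers they were 15.7 and 23.2, against 15.7, with Dpt and Lum under the pseudocount in every array. Without Vim, the brightest of them, they were 3.44 and 6.61, against 2.71. Smooth muscle markers summed to 2.78 and 3.13, against 3.70, with Des and Lmod1 under the pseudocount in every array. Endothelial markers summed to 4.96 and 5.82, against 4.35, with Emcn and Tek under it. The part of these cells in the values of the 10 genes was not tested.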

How the data were processed

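Intensities of 3 Affymetrix arrays, made by the authors with MAS5 per the submitters' processing notes, were deposited as 1 linear intensity per probe set and array. Each array has a median of exactly 1 and the 75th percentiles are 4.05 and 4.79 in the depleted arrays and 4.19 in wild type. No scanner files or detection calls entered the work, and precision is limited by having 3 arrays. Of 45037 probe sets that are not controls, 34945 had 1 gene symbol, 932 several and 9160 none in the platform annotation; Entrez numbers tied 34741 to RefSeq genes of GRCm38.p6, with 0 symbols changed. Each gene was represented by its probe set with the highest mean, and the 11885 genes with a mean of at least 0.598, the 40th percentile, were tested on log2(value + 0.248), the 25th percentile, in R 4.3.3 with limma 3.58.1 (lmFit, eBayes with trend, Benjamini-Hochberg). The spread rests on 1 residual and 600.5 prior degrees of freedom, and wild type, with 1 array, is taken to vary as the depleted group does; p-values measure only the spread between these samples, which may be technical. The 10 genes and the lists were chosen with earlier results of these data known. Named genes are all 10, called genes and the 3 with the largest smaller difference in each pathway list, the 3 nearest to Dusp4, and the sex-linked genes. Marker lists are given as counts and sums of each gene's brightest probe set, and list members without a probe set were not analysed here. Alternatives were other scalings, pseudocount, filters, probe set rules, no trend, and each depleted array left out.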

Additional observations from a re-analysis of the deposited data

How the results depend on the processing

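Dusp4, Egr1, Fos and Dusp1 stayed above wild type, and Junb below it, in both depleted arrays under the 3 other scalings and with a pseudocount of 1. Filters and the trend leave these differences as they are by construction, as do probe set rules for genes with 1 probe set. Of 38 differences recomputed with another scaling or pseudocount, 10 moved by more than the SD between the depleted arrays. These belong to Dusp4 with a pseudocount of 1 (1.49), and to Fos, Jun and Junb, 3 each, where the depleted arrays lie close together. Fosb fell under the filter at the 60th percentile, under quantile normalization and with a common 75th percentile, where 9 of the 10 genes are counted. With the common 75th percentile 6 genes were higher in both depleted arrays, Dusp6 among them, and under quantile normalization 5, with Dusp6 in and Jun out. With array medians subtracted, chosen after seeing the data, 3 genes were lower in both depleted arrays (Junb, Fosb and Atf3). With 1 depleted array left out, 5 to 9 of the 10 genes were higher, 1 to 5 lower, and 1 to 2 at least 2-fold higher.

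Counts over all genes depended on the processing. The limma count of 10 was 4 under quantile normalization, 4 when arrays were scaled to a common 75th percentile, 1 with dim genes kept, 6 when filtered at the 60th percentile and 21 with every probe set on its own. The pathway count of 2 was 0 under quantile normalization, under the common 75th percentile and with dim genes kept, 1 when filtered at the 60th percentile, 1 without trend, and 4 with every probe set. Genes at least 2-fold higher and lower in both, 100 and 58, were 72 and 86 with array medians subtracted, 85 and 75 with the common 75th percentile, 97 and 64 under quantile normalization, 19 and 19 with a pseudocount of 1, 162 and 124 with dim genes kept, 41 and 25 when filtered at the 60th percentile, 54 and 27 with probe sets averaged, 201 and 122 with every probe set, and 379 to 424 and 195 to 384 with 1 depleted array left out. Without 1 depleted array limma has no residual degrees of freedom, so no calls are given. The cause of the other changes was not tested. No paired analysis was possible, because there is 1 wild type array and its label carries no replicate number.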

Other observations

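Beyond the MAP kinase phosphatases, other dual specificity phosphatases on the array, picked by symbol after the values were seen, gave a mixed picture. There were 9 such tested genes, outside both the 10 genes described and the MAPK phosphatases listed with them. Of these, 3 were higher than wild type in both depleted arrays, 1 was lower in both and 5 were split. The shares over all genes were 39.0%, 19.5% and 41.5%. Limma called 0 of the 9, with 0 at an unadjusted p under 0.05. Dusp3, a small atypical phosphatase, read 4.77 and 5.63 in the depleted arrays, against 3.01 in wild type. Dusp18 read 1.30 and 1.68, against 0.665, and Dusp23 read 1.46 and 2.37, against 0.776. None of these lay at least 2-fold above wild type in both arrays on the log2 scale used.

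Sprouty2, the ERK signalling inhibitor encoded by Spry2 and chosen after its values were seen, had a dimmer probe set with log2 differences of 1.02 and 1.02, while its brighter probe set gave 0.17 and 0.41.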
